A study of Mus musculus with 6 samples.

Results

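The genes described here are named for proteins of the mitochondrial ribosome. They were taken as every gene whose symbol is Mrpl or Mrps followed by a number and at most 1 letter. Such names include Mrps36, now known as part of another complex, and leave out 5 proteins of this ribosome named otherwise, as described below. The rule found 78 of 51912 genes matched, 49 with large subunit names (Mrpl) and 29 with small subunit names (Mrps), and uses no measured value. Their messages were measured by poly(A) RNA sequencing in E14 cells, a mouse embryonic stem cell line grown on gelatin with leukemia inhibitory factor, at successive steps of a ribosome purification named RAPIDASH. Per the labels' protocols, ribosome-containing material spun through each sucrose cushion was split. RNA of the pellet group came directly from one portion, and RNA of the eluate group from the other, after it had bound to and been released from a resin charged with cysteine. The labels do not say that equal replicate numbers mark the same cushion, and the fit is unpaired. Each group held 3 libraries, so 6 in all. In both groups the E14 cells received fresh medium 1 hour before harvest and then 100 µg/mL cycloheximide, which arrests ribosomes on messages, for 3 minutes, with no genotype named. The design asks which poly(A) messages the resin step enriches beyond the cushion alone.

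The mitochondrial ribosome is a machine of mixed origin. Its ribosomal RNAs are made inside the organelle, while all of its proteins are encoded in the nucleus, translated by cytosolic ribosomes and imported. It translates the few messages of the mitochondrial genome, which encode membrane subunits of oxidative phosphorylation, and many of its proteins descend from those of bacteria while others were added during mitochondrial evolution. The messages followed here are therefore cargo of cytosolic ribosomes, like other nuclear messages.

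Library totals ran from 7.84e+06 to 1.04e+07 estimated counts in the pellets and from 1.002e+07 to 1.16e+07 in the eluates, and the lowest count of any of the 78 genes in any library was 133. Whether the replicates of a group were separate cultures is not stated in the labels, and the p-values therefore cover only the spread among these libraries. Summed CPM (counts scaled to a common library total) of 10 embryonic stem cell markers were 9713 to 10059 in the pellets and 12020 to 12375 in the eluates, with 5 markers called higher and 2 lower. The 5 fibroblast markers summed to 11.9 to 14.8 CPM in the pellets and 16.6 to 22.9 in the eluates, and the 8 markers of differentiated lineages to 19.0 to 20.7 and 17.5 to 21.2. Most of the fibroblast sum was Thy1, which was called higher (means 10.6 and 17.3 CPM). Pdgfra, the only other fibroblast marker tested, was not called (2.03 and 1.59). In the lineage list 5 markers were tested, with 1 called higher and 1 lower. No marker was at 0 in every library, and the fibroblast collagen Col3a1 was at 0 in 5 of 6. The part of these markers in the results below was not tested. In bulk libraries, fewer cells of a type and less RNA per cell cannot be told apart, and here both groups derive from the same split cushion material. Pellet 1 stood apart from the other pellets: over all genes its chi-square value per gene was 18.0 against pellet 2 and 14.1 against pellet 3, which differed from each other by 3.55. Against the eluates the value was 32.9 to 35.7 for pellet 1 and 65.5 to 81.9 for pellets 2 and 3.

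Coding sequences are shown first because base composition differed between the genes at the 2 ends of the fold changes described below. The middle 90 bases (30 codons) of the coding sequence, read from the GENCODE release 21 transcripts of each gene's most abundant annotated coding transcript, are shown for the 3 genes with the highest and the 3 with the lowest log2 fold change. Letters are lower case with the last base of each codon in capitals, 5′ to 3′ on the coding strand, and each window is exonic. The genes lie on chromosomes 7 (Mrps12), 17 (Mrps34), 8 (Mrpl34), 5 (Mrpl1), 9 (Mrps22) and 3 (Mrpl47).
Mrps12: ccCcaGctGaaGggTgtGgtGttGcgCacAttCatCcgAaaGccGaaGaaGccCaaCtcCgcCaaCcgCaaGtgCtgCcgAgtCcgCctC
Mrps34: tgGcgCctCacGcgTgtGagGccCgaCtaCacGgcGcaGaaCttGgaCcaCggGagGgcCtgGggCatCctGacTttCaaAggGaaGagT
Mrpl34: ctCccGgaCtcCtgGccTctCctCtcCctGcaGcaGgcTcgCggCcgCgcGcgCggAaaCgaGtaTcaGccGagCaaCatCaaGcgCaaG
Mrpl1: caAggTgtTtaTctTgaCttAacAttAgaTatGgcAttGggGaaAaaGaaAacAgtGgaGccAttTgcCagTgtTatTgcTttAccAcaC
Mrps22: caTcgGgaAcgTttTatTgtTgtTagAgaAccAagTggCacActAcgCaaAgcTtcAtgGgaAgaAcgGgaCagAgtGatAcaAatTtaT
Mrpl47: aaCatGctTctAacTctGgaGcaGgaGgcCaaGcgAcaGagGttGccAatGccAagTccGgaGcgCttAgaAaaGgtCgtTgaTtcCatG
In the windows of Mrps12, Mrps34 and Mrpl34, each of which was higher in the eluates, 26 of 30 last codon bases were G or C. In those of Mrpl1, Mrps22 and Mrpl47, each of which was lower, the counts were 9, 7 and 19 of 30. Over the whole coding sequence, the last codon base was G or C in 78.4% of Mrps12 codons, 77.98% of Mrps34 and 83.7% of Mrpl34, against 35.9% of Mrpl1, 44.3% of Mrps22 and 45.6% of Mrpl47.

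The 78 messages together took more of each eluate than of each pellet. Their share of matched counts was 0.579%, 0.552% and 0.532% in the pellets numbered 1 to 3 and 0.704%, 0.710% and 0.700% in the eluates numbered 1 to 3 (means 0.554% ± 0.0231 and 0.704% ± 0.00498, SD, n = 3 each). Every eluate lay above every pellet, and pellet 1 was the highest of the pellets. Per length, as summed TPM (transcript abundance corrected for length and scaled to 1 common total), they held 6966, 6405 and 6118 in the pellets and 7885, 7957 and 7865 in the eluates. The balance between subunits did not separate the groups: large subunit names held 2.04, 2.11 and 2.10 times the counts of small subunit names in the pellets and 2.04, 2.06 and 2.03 times in the eluates. A share over the genes is described here without a test.

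**Figure D1:**
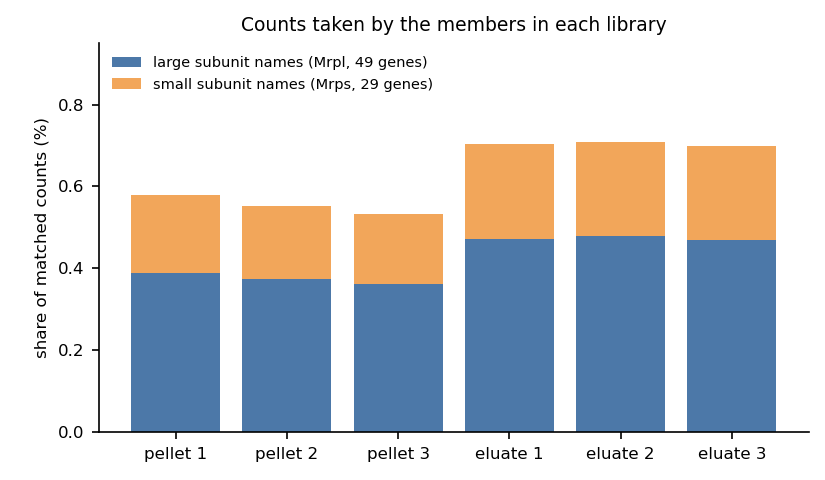
Share of matched counts (%) taken by the 78 genes in each of the 6 libraries, as stacked bars from 0 for large subunit names (blue) and small subunit names (orange). The eluate bars reach 0.700% to 0.710% and the pellet bars 0.532% to 0.579%.

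In edgeR's quasi-likelihood test over all 13231 genes that passed the count filter, with Benjamini-Hochberg adjustment and a threshold of 0.05 on the adjusted p, all 78 genes were tested. Of these, 55 were higher in the eluates, 4 were lower and 19 were not called, which is 70.5% higher and 5.13% lower. Over all genes tested 52.7% were called, 24.5% higher and 28.2% lower. Without pellet 1, 55 of the 78 were higher and 7 lower, while 3722 of all 13522 genes then tested were higher and 4039 lower. With all 6 libraries, the median log2 fold change of the 78 was 0.34, with quartiles of 0.09 and 0.59, against 0.00 for all genes tested. Fold changes were modest, from -0.91 for Mrpl1 to 0.86 for Mrps12, or from 0.532 to 1.82 times the pellet level. Every eluate lay above every pellet for 55 of the 78 (29.1% of all genes tested) and below for 5 (31.2% of all genes tested). Mrpl41 was called higher with overlapping groups, while Mrpl46 was above in every eluate and Mrpl39 below in every eluate without being called.

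By name, 69.4% of large and 72.4% of small subunit genes were called higher. Of the 49 large subunit names 34 were higher, 2 lower and 13 not called (median 0.34), and of the 29 small subunit names 21 were higher, 2 lower and 6 not called (median 0.45). The difference between the subunits was not tested. Taken library by library, the median gene of the 78 sat at 0.01, 0.04 and -0.03 on the log2 scale relative to its mean over the pellets in pellets 1 to 3, and at 0.35, 0.39 and 0.33 in the eluates. Pellet 1 was above both other pellets for 33 of the 78 genes (42.3%), and for 39.4% of all genes tested.

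**Figure D2:**
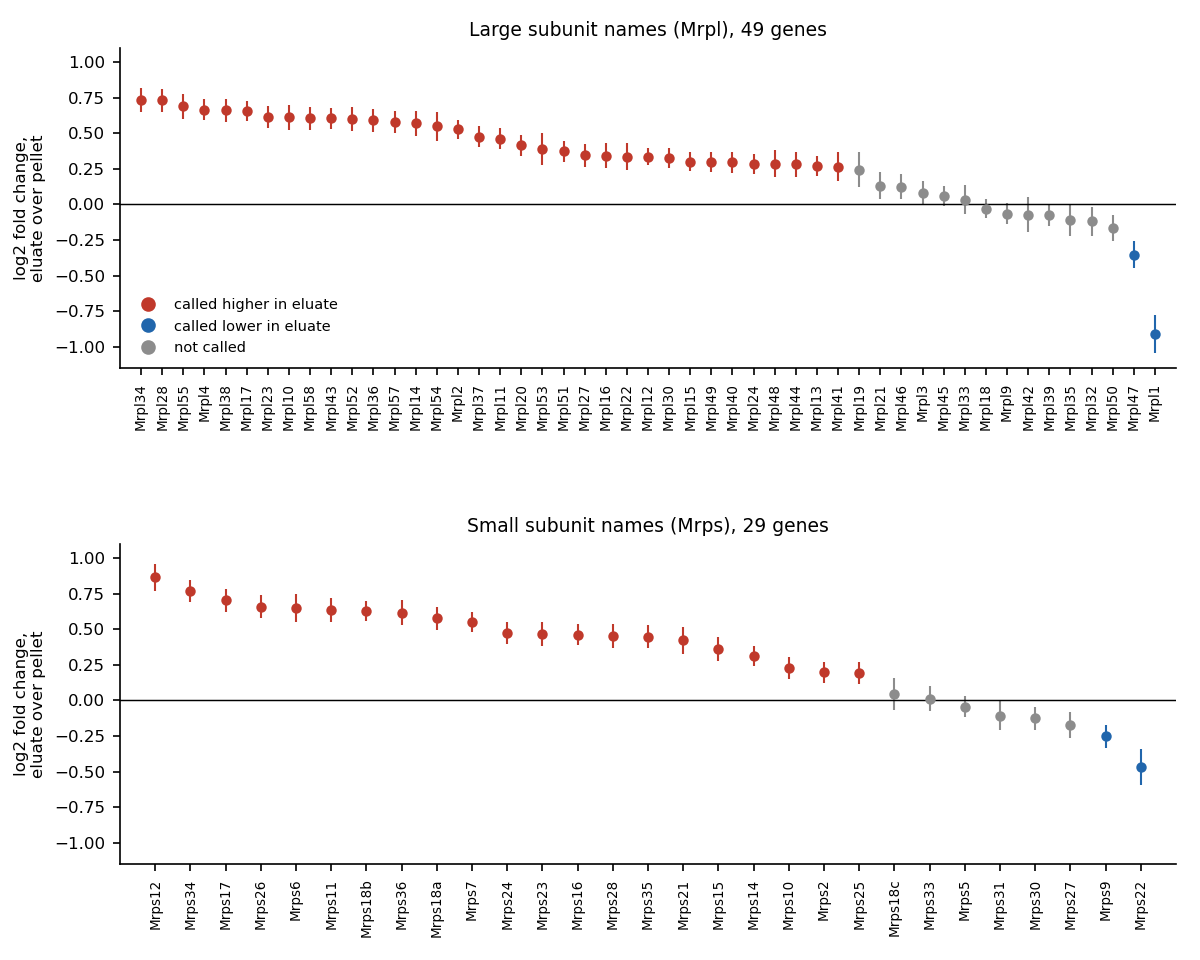
Log2 fold change of eluate over pellet (y axis) for each gene, with bars of 1 standard error, ordered within large subunit names (top) and small subunit names (bottom) and coloured by the call at adjusted p 0.05. In the top panel 34 of 49 points are called higher and 2 lower, in the bottom panel 21 of 29 and 2, and Mrpl1 at -0.91 lies lowest.

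Mrps12, the counterpart of the bacterial S12 protein at the decoding centre, showed the highest fold change. It had 50.8, 39.1 and 41.3 CPM in pellets 1 to 3 and 80.7, 82.8 and 75.2 CPM in eluates 1 to 3. Every eluate was above every pellet, with pellet 1 nearest to them. Its log2 fold change was 0.86 ± 0.098 (SE, adjusted p = 3.13e-06). Mrps34, a small subunit protein with no bacterial counterpart, had 63.1, 58.4 and 56.1 CPM in the pellets and 99.6, 104 and 98.9 in the eluates. The groups were far apart relative to their spread, and the fold change was 0.77 ± 0.076 (adjusted p = 9.84e-07). Mrps17, whose bacterial counterpart binds the small subunit RNA, had 56.5, 63.6 and 54.1 CPM in the pellets and 92.6, 94.3 and 97.6 in the eluates. Again no pellet reached an eluate (0.70 ± 0.081, adjusted p = 3.62e-06). Mrps26, a mitochondria-specific protein, stood at 54.2, 50.8 and 49.8 CPM in the pellets and 77.7, 78.7 and 88.3 in the eluates. Its eluates were all higher (0.66 ± 0.082, adjusted p = 8.42e-06).

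Among large subunit names, Mrpl34, the counterpart of a very small basic bacterial protein, had 45.9, 44.2 and 41.1 CPM in the pellets and 72.9, 78.03 and 67.9 in the eluates. The groups did not overlap, and the log2 fold change was 0.74 ± 0.086 (SE, adjusted p = 4.26e-06). Mrpl28, also of bacterial descent, had 84.2, 75.3 and 70.3 CPM in the pellets and 132, 131 and 119.5 in the eluates. Every eluate was above every pellet (0.73 ± 0.081, adjusted p = 2.58e-06). Mrpl55, the counterpart of bacterial L31, had 35.0, 37.0 and 31.8 CPM in the pellets and 53.8, 56.7 and 57.7 in the eluates. The eluates were again all higher (0.69 ± 0.089, adjusted p = 1.08e-05). Mrpl4, which in bacteria lines part of the exit tunnel, had 66.5, 60.9 and 62.8 CPM in the pellets and 97.96, 101 and 102 in the eluates. Its groups were separate too (0.66 ± 0.074, adjusted p = 2.8e-06).

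The stalk is the mobile arm of the large subunit that recruits translation factors. Mrpl12, present in the stalk in several copies, had 232, 231 and 231 CPM in the pellets and 292, 294 and 290 in the eluates. Its libraries were nearly level within each group, and every eluate was higher, at 0.34 ± 0.060 (adjusted p = 0.00023). Mrpl10, which anchors the stalk, had 89.5, 80.4 and 69.5 CPM in the pellets and 119.9, 128 and 119 in the eluates. The pellets were more spread than the eluates but stayed below them (0.61 ± 0.087, adjusted p = 2.69e-05). Mrpl11, at the stalk base, had 109, 115 and 100.2 CPM in the pellets and 149, 156 and 142 in the eluates, all above the pellets (0.46 ± 0.074, adjusted p = 8.68e-05). Mrpl58, a peptidyl-tRNA hydrolase that became part of the large subunit and is related to release factors, had 50.7, 46.2 and 43.8 CPM in the pellets and 69.6, 72.8 and 72.0 in the eluates. The groups did not overlap here either (0.61 ± 0.083, adjusted p = 1.9e-05).

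The 3 paralogs of bacterial S18 differed in their calls. Mrps18a, which despite its name sits in the large subunit, had 44.7, 41.1 and 40.6 CPM in the pellets and 64.0, 63.0 and 61.7 in the eluates. The eluates were all higher (0.58 ± 0.082, adjusted p = 2.61e-05). Mrps18b, a small subunit protein, had 115, 107 and 109 CPM in the pellets and 181, 164 and 165 in the eluates, again with no overlap (0.63 ± 0.071, adjusted p = 3e-06). Mrps18c, which takes the place of bacterial S18 itself, had 34.3, 46.3 and 45.7 CPM in the pellets and 40.8, 47.3 and 41.9 in the eluates. Its groups overlapped, with pellet 1 lowest of all 6 libraries, and its fold change was 0.04 ± 0.113 (adjusted p = 0.777). The difference between the paralogs was not tested.

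Only 4 genes of the 78 were lower in the eluates. Mrpl1, the counterpart of the bacterial protein of the mobile L1 arm near the site where spent tRNAs leave, had 37.7, 54.6 and 48.2 CPM in the pellets and 22.7, 28.5 and 23.6 in the eluates. Each eluate was below each pellet, and pellet 1 was nearest to the eluates. Its log2 fold change was -0.91 ± 0.134 (SE, adjusted p = 7.9e-05). Mrps22, a mitochondria-specific small subunit protein, had 28.1, 39.0 and 34.7 CPM in the pellets and 25.8, 26.0 and 21.8 in the eluates. The gap between pellet 1 and the nearest eluate was small (-0.47 ± 0.124, adjusted p = 0.00509). Mrpl47, the counterpart of bacterial L29 at the exit of the tunnel, had 56.3, 70.5 and 66.5 CPM in the pellets and 51.3, 53.4 and 46.6 in the eluates. Pellet 1 was again the lowest pellet and above every eluate (-0.35 ± 0.095, adjusted p = 0.00539). Mrps9, of bacterial descent, had 55.4, 60.3 and 58.0 CPM in the pellets and 48.7, 51.1 and 45.9 in the eluates, with no overlap (-0.25 ± 0.083, adjusted p = 0.0177). The call on Mrps9 was lost without eluate 1 (adjusted p = 0.0539), without pellet 2 (0.0752) and without eluate 3 (0.0797).

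**Figure D3:**
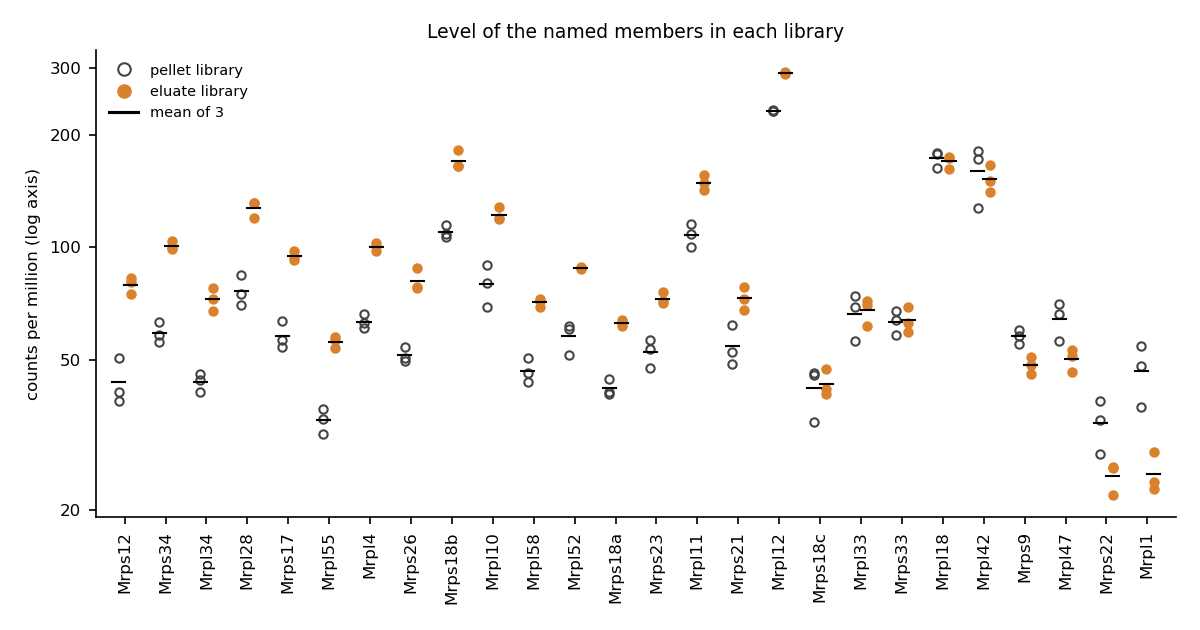
CPM on a log axis of the 26 named genes, 1 point for each pellet library (open) and each eluate library (filled), with a bar at each mean of 3, ordered by fold change. Points separate from Mrps12 to Mrpl12 and from Mrps9 to Mrpl1, and overlap for the 5 genes between.

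Not all abundant messages were called. Mrpl33 and Mrpl42 were among the highest per length, and Mrpl18 and Mrps33 had the fold changes nearest to 0 in their subunits. Mrpl33, a small protein of bacterial descent, had 56.2, 74.1 and 69.2 CPM in the pellets and 70.3, 72.0 and 61.7 in the eluates. The eluates lay within the range of the pellets (0.03 ± 0.101, adjusted p = 0.812). Mrpl42, a mitochondria-specific protein, had 128, 180.4 and 172 CPM in the pellets and 140.3, 166 and 151 in the eluates. Pellet 1 lay below all 3 eluates and the other pellets above them (-0.07 ± 0.124, adjusted p = 0.655), and without pellet 1 Mrpl42 was called lower at -0.22 (adjusted p = 0.00477). Mrpl18, whose bacterial counterpart binds 5S ribosomal RNA, had 178, 179 and 163 CPM in the pellets and 162, 173 and 174 in the eluates. The groups overlapped (-0.03 ± 0.068, adjusted p = 0.752). Mrps33, which is mitochondria-specific, had 58.5, 67.7 and 64.0 CPM in the pellets and 62.8, 69.6 and 59.4 in the eluates, again overlapping (0.01 ± 0.088, adjusted p = 0.929).

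Mrpl52, Mrps21 and Mrps23 were among the highest per length and were called higher. Mrpl52, a mitochondria-specific large subunit protein, had 61.7, 60.7 and 51.6 CPM in the pellets and 88.1, 88.6 and 87.7 in the eluates. The eluates were nearly level and all above the pellets (0.60 ± 0.083, adjusted p = 2.03e-05). Mrps21, of bacterial descent, had 52.5, 62.2 and 48.8 CPM in the pellets and 73.0, 78.5 and 68.3 in the eluates. They stayed apart with a narrower gap (0.42 ± 0.096, adjusted p = 0.00158). Mrps23, a mitochondria-specific small subunit protein, had 53.5, 56.6 and 47.8 CPM in the pellets and 71.2, 76.2 and 71.8 in the eluates, again separate (0.47 ± 0.084, adjusted p = 0.000225).

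Although the ribosome holds its proteins in near equal number, except for the stalk, the messages of the 78 genes spanned a wide range of abundance per length. In the pellets the mean TPM ran from 4.82 for Mrpl19 to 379 for Mrpl42, a ratio of 78.7, with a median of 65.4. The order at the top was Mrpl42 (379 ± 40.8 TPM, SD, n = 3), Mrpl52 (332 ± 46.2), Mrpl33 (286 ± 21.5), Mrps21 (267 ± 28.7) and Mrpl12 (206 ± 14.6). Of the 77 neighbouring pairs in the whole order, 74 had overlapping pellet values, so most neighbours did not differ beyond their spread. In the eluates the mean TPM ran from 5.44 for Mrpl19 to 478 for Mrpl52, a ratio of 87.8, with a median of 87.3. The levels in the 2 groups had a rank correlation of 0.97 across the 78 genes, which share the same libraries. Levels were somewhat further apart in the eluates: the SD of log2 TPM across large subunit names was 1.25 to 1.26 in the pellets and 1.35 to 1.40 in the eluates, and across small subunit names 1.02 to 1.04 and 1.12 to 1.17.

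The genes were also grouped by descent. Of the 46 with a bacterial counterpart, 33 were higher, 3 lower and 10 not called (median 0.34). Of the 31 specific to mitochondria, 21 were higher, 1 lower and 9 not called (median 0.30). Placed by the subunit in which the protein sits, the genes with a bacterial counterpart were 20 higher and 2 lower of 30 in the large subunit and 13 higher and 1 lower of 16 in the small. The mitochondria-specific genes were 15 higher and none lower of 21 in the large subunit, where Mrps30 and Mrps18a belong, and 6 higher and 1 lower of 10 in the small. Mrps36, now known as a component of the 2-oxoglutarate dehydrogenase complex, is in neither group. It had 48.6, 42.2 and 41.4 CPM in the pellets and 64.7, 70.1 and 68.2 in the eluates, with no overlap (0.62 ± 0.087, adjusted p = 2.58e-05). With the trend in transcript GC content and length removed, as described below, the counts were 14 higher and 4 lower with a bacterial counterpart and 10 and 3 specific to mitochondria. With the coding trend removed they were 10 and 9, and 3 and 6. No test was made between these groups.

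Fold changes were higher in the 78 genes with a higher GC content. Across them, log2 fold change had a rank correlation (Spearman's rho) of 0.68 with the GC content of the transcripts, 0.72 with coding GC content, 0.62 with G or C as the last codon base and -0.36 with coding length. The same values over 12116 nuclear coding genes tested were 0.72, 0.67, 0.64 and -0.42. These points share libraries, and the values are a description across genes. When the 78 genes were divided into 3 sets of 26 by GC content, the set from 40.5% to 49.1% had a median log2 fold change of 0.04 with 10 higher and 3 lower. The set from 49.2% to 52.6% had a median of 0.31 with 20 higher and 1 lower, and the set from 52.7% to 60.6% a median of 0.57 with 25 higher and none lower. Calls over all genes tested in the same GC ranges were not counted, so these counts stand without a background. The 55 higher genes had a median GC content of 52.5% and coding length of 504 bases, the 4 lower ones 45.5% and 956 bases, and the 19 not called 46.9% and 798 bases. The 78 genes had a median coding length of 566 bases and a median GC content of 51.0%, against 1341 bases and 50.9% for all genes tested.

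**Figure D4:**
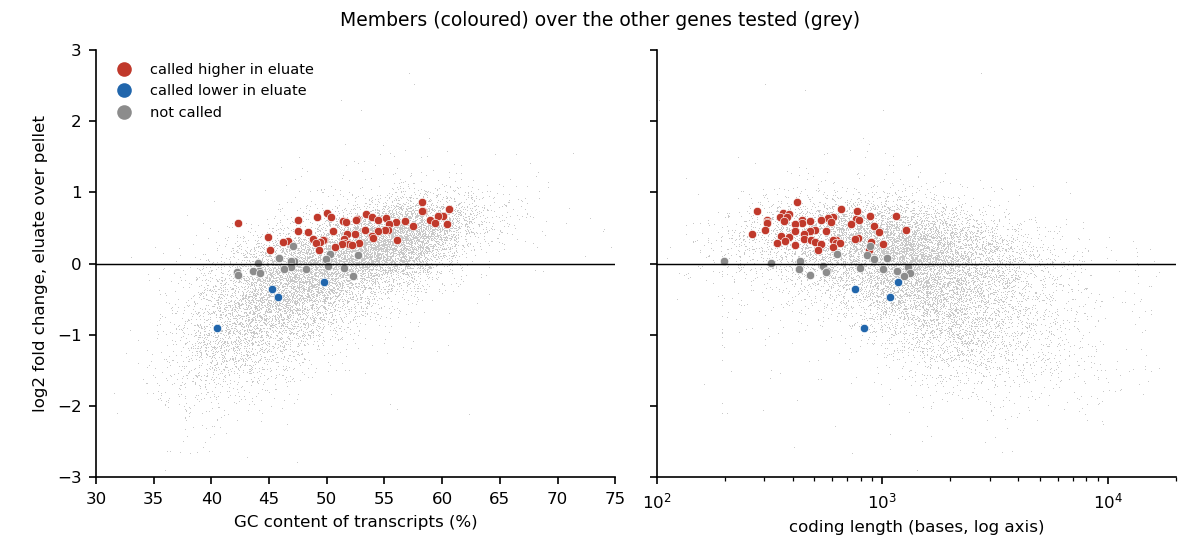
Log2 fold change of eluate over pellet against the GC content of transcripts (left) and coding length on a log axis (right), for the 78 genes (coloured by call) over the other genes tested (grey, drawn within the axis limits). Fold changes rise with GC content in the 78 genes as in the grey cloud (rho 0.68 and 0.72), and the coloured points lie at the short end of coding length.

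With each library's smooth trend of log counts over transcript GC content and length removed, fewer of the 78 genes passed. There were 25 higher (32.1%) and 7 lower (8.97%), with a median of 0.06. In that fit 12.2% of all genes tested were higher and 22.5% were lower, with a median of -0.08. Of the 55 genes called higher in the reported fit, 18 remained so, 36 were not called and 1, Mrpl12, was lower at -0.24 (adjusted p = 0.000892). Of the 4 lower genes, Mrps9 (-0.46) and Mrps22 (-0.41) remained lower, while Mrpl1 was at -0.22 (adjusted p = 0.0541) and Mrpl47 at 0.03. Mrps34 stood at -0.01, Mrps12 at 0.17 (adjusted p = 0.0916) and Mrps17 at 0.41 (adjusted p = 2.1e-05). With the trend in GC content alone removed, 49 were higher and 3 lower (median 0.25). Over all 13231 genes tested, 2085 were then higher and 3285 lower (median -0.07).

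Fold changes with the transcript GC and length trend removed were related to another feature of the 78 genes. They had a rank correlation of 0.61 with the length of the 3′ untranslated region, against 0.22 over the nuclear coding genes. With GC content it was -0.47, against 0.02. In the reported fit the correlation with the length of the 3′ untranslated region had the other sign, at -0.24, against -0.30 over the nuclear coding genes. That region is part of the transcript length whose trend was removed. Mrpl57, a small mitochondria-specific protein whose message has a 3′ untranslated region of 2471 bases, moved from 0.58 to 1.14. Mrps26, with one of 3638 bases, moved from 0.66 to 0.83. With the trend in GC content alone removed, Mrpl57 was already at 1.19 and Mrps26 at 0.71. A further fit, chosen after seeing the data, removed instead the trend over the GC content and length of the coding sequence alone, for the 12116 genes that have them. It left 14 of the 78 higher (17.9%) and 15 lower (19.2%), with a median of 0.02. The rank correlation with the length of the 3′ untranslated region was -0.15, against -0.26 over the nuclear coding genes. Across the 78 it was -0.34 with coding GC content and -0.36 with G or C as the last codon base, against 0.02 and 0.04. With the length of the 5′ untranslated region it was 0.32, against 0.03. Over all genes in that fit 13.2% were higher and 23.5% lower, with a median of -0.07. Of the 55 reported as higher, 12 remained and 8 were lower. Mrpl57 was lower there at -0.19 and Mrps26 was at -0.10.

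In all 3 fits (reported, transcript trend removed, coding trend removed) 6 genes were called higher. They were Mrps17, Mrps18b, Mrps36, Mrps35, Mrps14 and Mrpl15. Mrps9 alone was called lower in all 3. How many of all genes tested were called alike in all 3 fits was not counted, so these numbers stand without a background. Of all genes called, 46.5% were higher in the reported fit, 35.3% with the transcript trend removed, 36.0% with the coding trend removed and 35.0% when log2(TPM + 1) was tested in place of counts.

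**Figure D5:**
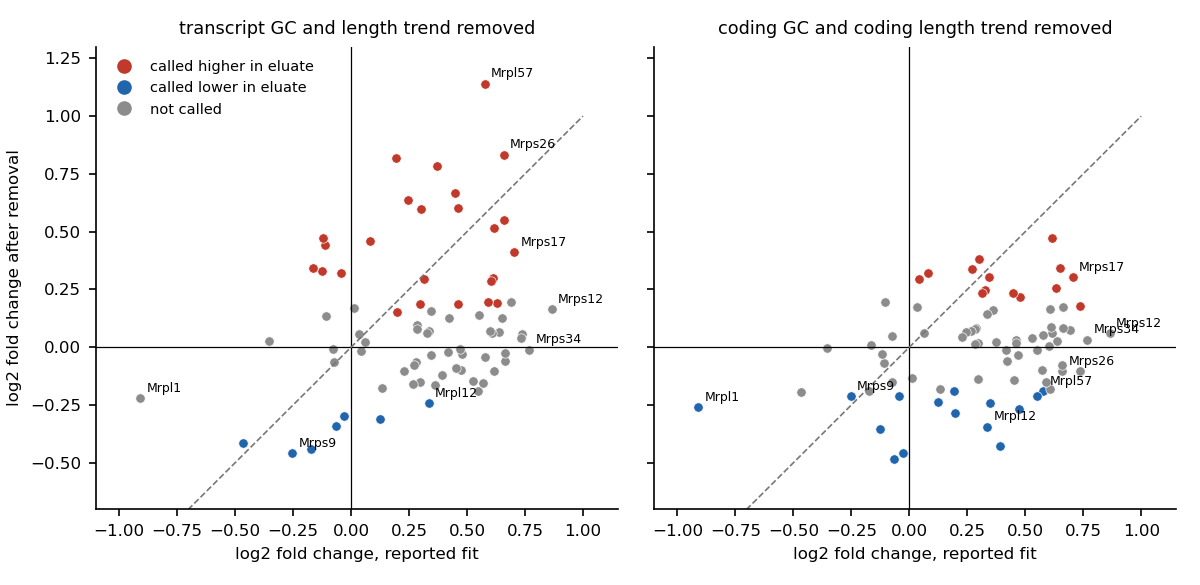
Log2 fold change of each of the 78 genes in the reported fit (x axis) and after a sequence trend was removed (y axis), for the trend over transcript GC content and length (left) and over coding GC content and length (right), coloured by the call after removal, with the line of equal values dashed. Most points at the right of each panel fall below the dashed line, and Mrpl57 and Mrps26 lie high in the left panel and below 0 in the right.

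Transcripts of 1 gene were not called in opposite directions. Of 136 annotated transcripts of the 78 genes, all of them protein coding, 119 passed the count filter, and 54 were called higher and 3 lower (11.9% and 14.6% of the 19207 transcripts tested). Among the 27 genes with 2 or more transcripts tested, 0 had calls in both directions, and 7 had fold changes of both signs. The lower calls were both transcripts of Mrpl1 and the only tested transcript of Mrps9. With so few lower calls, the 0 says little about the 27 genes. Both transcripts of Mrpl1 were lower, at -0.87 ± 0.190 (adjusted p = 0.0203) and -1.03 ± 0.184 (adjusted p = 0.0103). Both transcripts of Mrpl17 were higher, 1 of 1028 bases at 0.55 and 1 of 7300 bases at 0.71. Reads of transcripts that overlap can be exchanged in such estimates.

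Messages of other mitochondrial translation genes gave mixed directions. Of 5 mitochondrial ribosome proteins with other names, 2 were higher, 1 lower and 2 not called (median 0.04). Ptcd3, a pentatricopeptide repeat protein of the small subunit, had 62.3, 69.2 and 64.9 CPM in the pellets and 28.0, 31.2 and 32.3 in the eluates. No pellet overlapped an eluate, and the fold change was below the lowest of the 78 (-1.104 ± 0.090, adjusted p = 2.15e-07), while Gadd45gip1, a large subunit protein, was higher at 0.51 ± 0.075. Of 11 translation factors, 3 were higher, 4 lower and 4 not called (median -0.00). The initiation factor Mtif2 was lowest at -1.20 ± 0.130, and the elongation factor Tsfm, which recharges the factor that delivers tRNAs, was highest at 0.49 ± 0.086. Of 26 genes for ribosome assembly and ribosomal RNA modification, 5 were higher, 3 lower and 18 not called (median 0.05), from Gtpbp10, an assembly GTPase, at -0.997 ± 0.101 to Rpusd3, a pseudouridine synthase family member, at 0.76 ± 0.173. Of 9 genes that make, process or insert the products of mitochondrial messages, 1 was higher, 6 lower and 2 not called (median -0.32). Pnpt1, a nuclease of RNA turnover, was at -1.69 ± 0.127 and Oxa1l, the inner membrane insertase, at 0.29 ± 0.092. The counts of these lists also moved with the trends removed. Proteins with other names were 1 higher and 3 lower with the transcript trend removed and 0 and 3 with the coding trend removed. Translation factors were 1 and 5, then 2 and 2, and assembly and modification genes 1 and 8, then 2 and 7 of the 25 in that fit. Genes acting on mitochondrial messages or their products were 2 and 3, then 2 and 4. The 13 messages that the mitochondrial ribosome translates were 12 lower and 1 not called (median -1.54). With the transcript trend removed, 0 of the 13 were higher and 9 lower (median -0.68), and the coding-trend fit did not include them. The 80 cytosolic ribosomal protein genes tested were 52 higher, 3 lower and 25 not called (median 0.27), side by side with the 55, 4 and 19 of the 78. With the transcript trend removed, 18 of the cytosolic genes were higher and 27 lower (median -0.07), against 25 and 7 of the 78 (median 0.06). With the coding trend removed, 22 were higher and 23 lower (median -0.05), against 14 and 15 of the 78 (median 0.02). The difference between these lists was not tested.

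Shared sequence limits some of these values. For 13 of the 78 genes, at least 10% of their 31-base subsequences also occur in another gene on the opposite strand, and no source used here gives the strand setting of the counting. Of these 13, 8 were higher, 1 lower and 4 not called (median 0.27), and of the other 65, 47 were higher, 3 lower and 15 not called (median 0.37). The largest overlap was that of Mrps18b with Gm16279 (75.4%), which took 3747 counts over all libraries against 8390.1 for Mrps18b, followed by Mrps25 with Nr2c2 (58.0%) and Mrpl24 with Rrnad1 (49.6%). Among the lower genes, Mrpl47 shares 12.7% with Actl6a, which took 10269 counts against 3320 for Mrpl47. On the same strand, the pseudogene Mrpl23-ps1 holds 86.1% of the subsequences of Mrpl23 and took 260.5 counts over all libraries against 3952.5 for Mrpl23, so Mrpl23 (0.61 ± 0.079) is uncertain to that extent.

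In the authors' deposited table, which lists 4892 genes at an adjusted p under 0.05, 49 of the 78 genes were present, 1 of them (Mrpl58) under its older symbol Ict1. The authors' deposited table gives 47 of them as higher and 2 as lower, and each has the same direction and is called in the fit here. That comparison used the same 6 libraries, so equal directions are no independent check. How many of the 4892 genes were higher or lower was not counted, so the 47 and 2 stand without a background. Mrps12 is at 0.84 and Mrpl1 at -0.85 in the authors' deposited table. The largest difference was 0.20, for Mrps23, which is at 0.67 in the authors' deposited table and 0.47 here. The 10 genes called here and not listed there include Mrps22 and Mrps9.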

How the data were processed

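Poly(A) RNA was measured in 6 libraries of E14 cells, 3 pellets and 3 eluates, grouped by the sample titles. The submitters' processing notes name GRCm39 as the build and list Salmon 1.10.3, STAR 2.7.11b, cutadapt 4.7 and DESeq2 1.44.0 without their roles. No annotation release or strand setting was given in the sources. Per the file headers, the authors deposited 1 Salmon output for each library, with an estimated count for every transcript. The same files give the authors' TPM and, in bases, the transcript's length and its effective length. Log2 fold changes and their standard errors come, per the file headers, from the authors' own comparison, deposited as 1 table. That deposited table also has the authors' p-values, raw and adjusted, and a Wald statistic, a kind of score. Its mean normalized counts, deposited by the authors as a signal with unstated scaling, were copied only.

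Transcripts were matched by identifier, without version, to GENCODE mouse release 21 for symbols, sequences and lengths. The match took 76858 of 84226 transcripts, including 136 of the 78 genes, each of the same length in both. The others held 1.63% to 2.35% of a library and were left out. That release uses another build than the files, so no genome coordinates are printed. A chi-square comparison gave 3.12 to 4.01 per gene among eluates, 3.55 between pellets 2 and 3, and 14.1 and 18.0 for pellet 1 against these, so none was counted as a repeat.

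For each gene the estimated counts of its transcripts were added and then rounded. Genes were tested with edgeR 4.0.16 in R 4.3.3 (robust quasi-likelihood fit, TMM factors, the default count filter, Benjamini-Hochberg adjustment over all genes tested, threshold 0.05), after the test had been tried on simulated data. CPM are matched counts scaled to a common library total. Alternatives used limma 3.58.1, DESeq2 1.42.0 and splines with 5 degrees of freedom over GC content and length. GC content and length are means over a gene's transcripts weighted by TPM. Figures were drawn with matplotlib 3.10.9, and tables were made with numpy 2.4.6 and pandas 2.3.3 in Python 3.11.15.

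The genes and lists were chosen with earlier results of these data known. For large and small subunit names each, full values are given for the 4 highest fold changes among genes called higher, every gene called lower up to 4, the 3 highest mean TPM, and the fold change nearest to 0. Values are also given for the Mrps18 paralogs, the stalk proteins and Mrpl58, all at a mean CPM of at least 1. In other lists, the highest and lowest called genes are named. Mrps36, Mrpl57, Mrpl17, Mrpl19, Mrpl23, Mrpl39, Mrpl41, Mrpl46, Mrps25, Mrps30, Mrpl24 and the genes called in all 3 fits were named after their values were seen.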

Additional observations from a re-analysis of the deposited data

How the results depend on the processing

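The 55 higher genes numbered 53 with DESeq2 and 54 with limma voom, and the 4 lower genes remained lower in both. Over all genes tested, DESeq2 gave 2826 higher and 3335 lower, and limma voom 3198 and 3687. Leaving out 1 library in turn gave 49 to 55 higher and 3 to 7 lower, the 7 without pellet 1. Over all genes tested, those fits gave 2615 to 3722 higher and 3224 to 4039 lower. For large subunit names the lower count ran from 2 to 5 (5 without pellet 1), and for small subunit names from 1 to 2, with medians of 0.41 to 0.48. Without both libraries numbered 1 there were 9 lower (5 large, 4 small), with 3908 genes lower in all. Without those numbered 2 there was 1 (1 large, 0 small), with a small subunit median of 0.49 and 2852 genes lower in all. Without those numbered 3 there was also 1 (1 large, 0 small), with a small subunit median of 0.41. In all, 1949 genes were then higher and 2662 lower. Upper-quartile factors gave medians of 0.43 for the 78, 0.43 for large and 0.54 for small subunit names, with 1 small subunit gene lower. They also moved the median over all genes tested, to 0.094 from 0.003 in the reported fit, with 4055 genes higher and 3184 lower. The threshold of 0.01 also left 1 small subunit gene lower. The effective-length offset gave a small subunit median of 0.41. On log2(TPM + 1) the medians were 0.27, 0.25 and 0.33 with 1912 genes higher, and with a pseudocount of 0.1 they were 0.27, 0.25 and 0.34 with 1889. In these fits on TPM the medians over all genes tested were -0.056 and -0.071, with 3548 and 3533 genes lower.

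Removing the transcript GC and length trend left 25 of the 78 higher and 7 lower (median 0.061), 14 and 4 among large (median 0.041) and 11 higher among small subunit names (median 0.13), with 1620 genes higher. Among the named genes called in the reported fit, signs turned for Mrps34 (-0.010), Mrpl4 (-0.059), Mrps18a (-0.041), Mrps23 (-0.0064), Mrpl12 (-0.24) and Mrpl47 (0.027). Of these, Mrpl12 alone was called in its new direction, and the median over all genes tested in that fit was -0.08. Removing GC alone gave medians of 0.25, 0.23 and 0.28, with 1 large subunit gene lower and 2085 genes higher. Of the named genes called in the reported fit, Mrpl12 (-0.045) and Mrpl47 (0.031) then turned, neither of them called in its new direction. The fit chosen after seeing the data, with the coding trend removed, left 14 higher and 15 lower (median 0.020), 7 and 9 among large (0.020) and 7 and 6 among small subunit names (0.028), with 1604 genes higher. Of those named genes, Mrpl34 (-0.10), Mrps26 (-0.10), Mrps23 (-0.032), Mrps21 (-0.060) and Mrpl12 (-0.34) turned. Mrpl12 was called lower there, while Mrpl34 and Mrps26 were not called, and the median over all genes in that fit was -0.07. The cause of these changes was not tested.

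Same-numbered pellets and eluates deviated together at correlations of 0.07, 0.15 and -0.01 across genes, and differently numbered ones at -0.18 to 0.11. With 3 libraries a group, these values cannot show whether the numbers mark pairs. The labels do not name pairs either, so the numbers were not taken as such. With the replicate number as a block, 55 genes were higher and 4 lower, each with its reported call. Over all genes tested, that fit gave 3306 higher and 3770 lower. With the block and the GC and length trend removed together, 25 were higher and 11 lower (median 0.061), 14 and 8 among large (0.042) and 11 higher among small subunit names (0.13), with 1651 genes higher. Of the named genes called in the reported fit, Mrps34 (-0.0093), Mrpl4 (-0.058), Mrps18a (-0.041), Mrps23 (-0.0036), Mrpl12 (-0.24) and Mrpl47 (0.029) turned in that blocked fit. The median over all genes tested in it was -0.075. With 3 libraries a group, genes at a fold change near 0 with overlapping groups cannot be called unchanged.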
